A study of Mus musculus with 9 samples.

Results

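Lipid-associated macrophages are macrophages that gather around lipid-laden adipocytes, and 8 genes used to recognise them were followed in adipose tissue RNA of male C57BL/6J mice. The genes were Gpnmb, Lgals3, Cd68, Cd9, Fabp5, Spp1, Lpl2 and Cd63, taken by exact gene name from a count table of 3958 genes. Rows were present for 6 of the 8. Spp1 and Lpl2 were not analysed here. Each of the 6 passed the filter on low counts, and so did all 3958 genes. The name Lpl2 was not read as Lpl, the lipoprotein lipase gene, which appears below only among other genes of the same cell state.

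The mice were labelled day 21, and 3 groups of 3 libraries were compared. EA (libraries 5, 7 and 8) is labelled as treated with electroacupuncture, in which current flows through acupuncture needles. MPX (libraries 2, 5 and 7) and CPX (libraries 4, 6 and 8) carry no treatment label. The series names a normal diet, a high-fat diet and a high-fat diet with electroacupuncture, but the labels do not tie the MPX and CPX prefixes to a diet, so no difference is read as an effect of diet. The depot is not stated, the RNA protocol speaks of retinas, and nothing says that each library is a separate mouse. The p-values therefore measure the spread between libraries, which may be technical.

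When adipocytes enlarge or die, macrophages surround them, take up the released lipid and break it down in lysosomes. This state depends on the lipid receptor TREM2 and is marked by genes for lipid handling, lysosomes and surface glycoproteins. In bulk tissue, fewer cells of a type and less RNA per cell cannot be told apart, and most of the 8 genes are also made by other cells of fat.

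Promoter sequences are shown for the 3 members whose levels varied most between libraries, since these members are compared throughout. They are the 250 bases before the RefSeq start (GRCm38.p6), written 5′ to 3′ on the gene's strand. RefSeq promoters were matched for 5 of the 6 genes by symbol. Capitals mark matches, on either strand, to 6 motifs: an AP-1 site (TGANTCA), an ETS core (GGAAGT), the E-boxes CACGTG and CATGTG, a GC box (GGGCGG) and a C/EBP pair (TTGCNNAA).
Gpnmb (chr6:49036268-49036517, plus strand): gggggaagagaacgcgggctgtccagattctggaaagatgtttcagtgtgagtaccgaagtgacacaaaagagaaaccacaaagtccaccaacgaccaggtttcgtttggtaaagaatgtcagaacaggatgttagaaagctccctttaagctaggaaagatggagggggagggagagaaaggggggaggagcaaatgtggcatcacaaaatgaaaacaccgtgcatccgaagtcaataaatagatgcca
Lgals3 (chr14:47373610-47373859, plus strand): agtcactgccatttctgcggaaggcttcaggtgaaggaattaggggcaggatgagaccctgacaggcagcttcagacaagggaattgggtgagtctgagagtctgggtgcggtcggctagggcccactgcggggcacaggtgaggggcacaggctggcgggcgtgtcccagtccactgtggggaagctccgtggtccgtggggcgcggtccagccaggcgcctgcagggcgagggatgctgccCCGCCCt
Cd68 (chr11:69666171-69666420, minus strand): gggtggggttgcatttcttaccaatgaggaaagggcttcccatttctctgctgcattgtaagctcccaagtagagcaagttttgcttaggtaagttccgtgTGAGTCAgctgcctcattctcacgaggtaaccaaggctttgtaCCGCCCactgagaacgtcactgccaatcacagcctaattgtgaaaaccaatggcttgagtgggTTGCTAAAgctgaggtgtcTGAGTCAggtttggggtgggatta
Cd68 held 2 copies of TGAGTCA, an AP-1 site of the kind bound by Jun and Fos proteins, beginning 149 and 24 bases before the start. At least 1 AP-1 match was present in 6.75% of 32851 promoter windows of the same length. Cd68 also held a C/EBP pair, which 9.56% of windows held, and a GC box, which 32.7% held. The Lgals3 window was GC-rich (66.0% G or C, against a median of 52.4% over all windows) and held 1 GC box, 7 bases before the start. Its RefSeq start lies inside the gene span given in the count table. The Gpnmb window held none of the 6 motifs, including CATGTG, the M-box read by MITF and TFE proteins, which 12.2% of windows held. The CACGTG core was in 6.02% of windows and the ETS core in 19.7%. None of the 3 windows held either. No match overlapped another, and these letters describe the windows only.

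The libraries within CPX were unlike each other, and this bears on each contrast with CPX. The listed counts per library were 12115183 to 14208853, and levels are given as CPM (counts scaled to a common total of listed counts, after TMM factors), which correct for composition. Spearman's correlation across the 3958 genes was at least 0.79 within EA and 0.87 within MPX, but 0.19 between CPX 4 and CPX 6. B cell genes summed to 736 to 2021 CPM in EA, 7.0 to 19.5 CPM in MPX and 207 to 4722 CPM in CPX (8 of 12 list genes present). Adipocyte genes summed to 24102 to 31919 CPM in EA, 31606 to 37091 CPM in MPX and 5268 to 66159 CPM in CPX (15 of 16 present), with CPX 6 lowest and CPX 4 highest, so the adipose label was least matched in CPX 6. None of 9 mesothelial marker genes was listed.

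Gpnmb encodes glycoprotein NMB, a transmembrane protein of lysosomes and melanosomes that rises in lipid-loaded macrophages (ENSMUSG00000029816; mm10 chr6:49036546-49070929, plus strand). Gpnmb was at 102, 152 and 440 CPM in EA libraries 5, 7 and 8, at 474, 137 and 164 CPM in MPX libraries 2, 5 and 7, and at 36.7, 14.5 and 90.4 CPM in CPX libraries 4, 6 and 8. All EA and MPX libraries were above all CPX libraries, while EA and MPX overlapped. EA 8 and MPX 2 stood well above the others of their groups. Across the 9 libraries Gpnmb spanned 32.6-fold, and the SD of its log2 CPM (1.58) was at the 98.4th percentile of all genes, whose median SD was 0.44.

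Lgals3 encodes galectin-3, a secreted sugar-binding protein that also marks damaged lysosomes (ENSMUSG00000050335; mm10 chr14:47367751-47386160, plus strand). Lgals3 was at 129, 133 and 315 CPM in EA, at 440, 227 and 218 CPM in MPX, and at 131, 102 and 75.9 CPM in CPX, libraries in the same order. All MPX libraries were above all CPX libraries. EA 5 lay just below CPX 4, so EA and CPX overlapped. This overlap rested on the TMM factor of CPX 4 (0.753). Without factors EA 5, the lowest EA library, was at 134 CPM, above CPX 6 at 110 and CPX 4 at 98.7.

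Cd68 encodes a lysosomal glycoprotein of phagocytes that is used to count macrophages of any state (ENSMUSG00000018774; mm10 chr11:69664213-69666153, minus strand). Cd68 was at 115, 100 and 251 CPM in EA, at 196, 67.7 and 82.3 CPM in MPX, and at 17.7, 102 and 67.7 CPM in CPX. The 3 groups overlapped, with CPX 4 far below the rest at 187 counts. That count and the 189 counts of Gpnmb in CPX 6 were the lowest of the 6 genes, so counting error was small beside the spread between libraries.

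Fabp5 encodes a fatty acid binding protein of macrophages and skin (ENSMUSG00000027533; mm10 chr3:10012548-10016607, plus strand). Fabp5 was at 223, 102 and 137 CPM in EA, at 215, 354 and 241 CPM in MPX, and at 255, 99.2 and 112 CPM in CPX. It had the highest group mean in MPX, but EA 5 and CPX 4 reached into the MPX range. Without TMM factors CPX 4 was at 192 CPM, below MPX 2, the lowest MPX library, at 218. EA 5 at 232 CPM still reached into that range.

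Cd9 and Cd63 encode tetraspanins, membrane organisers found on many cell types; CD63 sits mainly in lysosomes and exosomes. Cd9 (ENSMUSG00000030342; mm10 chr6:125460266-125494791, minus strand) was at 70.2, 75.4 and 73.9 CPM in EA, at 101, 80.6 and 64.3 CPM in MPX, and at 50.8, 86.3 and 78.1 CPM in CPX. Cd63 (ENSMUSG00000025351; mm10 chr10:128900989-128912822, plus strand) was at 297, 243 and 397 CPM in EA, at 385, 187 and 212 CPM in MPX, and at 493, 225 and 228 CPM in CPX. Neither separated the groups, and Cd9 varied 2.0-fold over the 9 libraries, its SD (0.28) at the 24.4th percentile. Cd9 shares 3316 bases with the antisense gene Gm28809 and 368 with Gm26728 in the annotation, whose reads cannot be told apart without a strand setting. Pseudogene copies of Fabp5, Cd9 and Cd63 are annotated too, and reads could have been split with them.

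**Figure D1:**
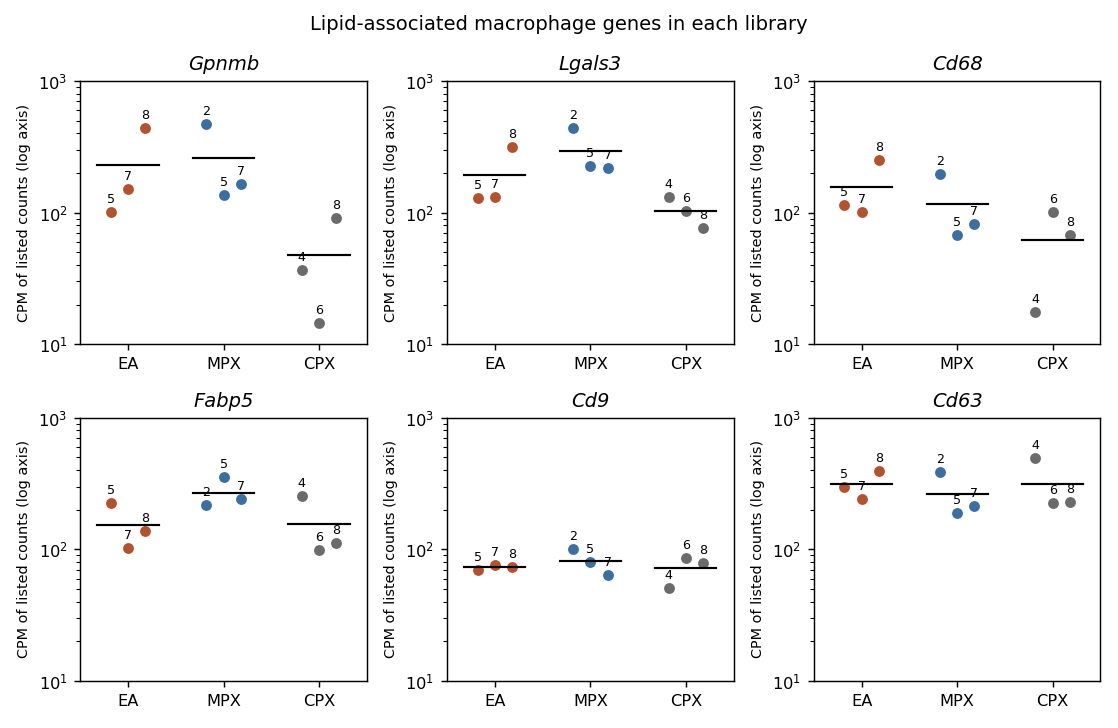
CPM of listed counts (log axis) of the 6 genes in EA, MPX and CPX; each point is a library with its number, and each line is the mean of 3 libraries. Gpnmb lay at or above 102 CPM in the EA and MPX libraries and at or below 90.4 CPM in the CPX libraries, whereas Cd9 stayed between 50.8 and 101 CPM in all 9.

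Per kilobase of gene length, the order of the means over 9 libraries was Lgals3 (106 CPM per kb), Cd68 (88.4), Cd63 (80.5), Fabp5 (54.1), Cd9 (37.0) and Gpnmb (27.5). In EA, Cd68 came first at 124 ± 66.4 CPM per kb, followed by Lgals3 at 103 ± 57.3 and Cd63 at 84.8 ± 21.2 (SD, n = 3). In MPX, Lgals3 came first at 159 ± 67.6 CPM per kb, followed by Cd68 at 91.8 ± 55.9. In CPX, Cd63 came first at 85.7 ± 41.9 CPM per kb, and Gpnmb came last at 7.25 ± 5.99. In CPX, Lgals3 followed Cd63 at 55.5 ± 14.9 CPM per kb. In each group the gene in first place stood above the next by less than its own SD between libraries. Within libraries, Cd68 was the highest of these genes in each EA library, and Lgals3 in each MPX library. In CPX the first place varied, since in CPX 6 Cd68 (80.8 CPM per kb) stood above Cd63 (61.0). These orders were not tested.

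EA was set against MPX to ask whether the marker genes differed between electroacupuncture and 1 of the groups without it. Fabp5 had a mean of 154 ± 62.3 CPM in EA libraries and 270 ± 73.7 CPM in MPX libraries (SD, n = 3 each), a log2 difference of -0.81 (SE 0.44, 95% interval -1.82 to 0.20). Lgals3 had a mean of 192 ± 107 CPM in EA libraries and 295 ± 126 CPM in MPX libraries, a log2 difference of -0.62 (SE 0.44, interval -1.64 to 0.40). Gpnmb had a mean of 231 ± 182 CPM in EA libraries and 258 ± 187 CPM in MPX libraries, a log2 difference of -0.16 whose interval ran from -1.99 to 1.67. The groups overlapped for all 6 genes, whereas 21.5% of all genes lay wholly higher in EA and 19% wholly lower. Cd68 had a difference of 0.43 (interval -1.11 to 1.97), Cd63 of 0.26 (-0.71 to 1.22) and Cd9 of -0.17 (-0.74 to 0.40).

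None of the 6 passed the test of EA against MPX (edgeR's quasi-likelihood test, adjusted over 3958 genes; the smallest adjusted p among them was 0.775), and 0% of all genes did. At an unadjusted p under 0.05, 0 of the 6 and 5.1% of all genes were counted. DESeq2 called 0 of the 6 and 1.24% of all genes, and limma voom called 0 of 3958 genes. These intervals are wide, so equal levels were not shown. The Gpnmb difference changed sign without EA 5 (0.20), without EA 7 (0.07) or without MPX 2 (0.58), and was -1.03 without EA 8. The Lgals3 difference was -0.25 without MPX 2 and -1.18 without EA 8, and that of Cd68 was 1.01 without MPX 2 and -0.10 without EA 8. B cell genes had positive differences for 8 of 8 in this contrast (median 6.58). With them as a covariate Gpnmb was at 1.18 and Cd68 at -1.17. Their mean log2 CPM was 6.43 to 7.96 in EA and -0.39 to 1.24 in MPX, with no overlap. Group and covariate can therefore hardly be told apart in this fit, and the part of B cell genes in the values was not tested further. Endothelial genes had negative differences for 11 of 11 (median -0.38), and their part was not tested.

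MPX was set against CPX, the groups with no treatment label. Gpnmb had a mean of 258 ± 187 CPM in MPX libraries and 47.2 ± 39.0 CPM in CPX libraries, a log2 difference of 2.45 (SE 0.84, interval 0.52 to 4.38) or 5.46-fold. Lgals3 had a mean of 295 ± 126 CPM in MPX libraries and 103 ± 27.6 CPM in CPX libraries, a log2 difference of 1.52 (SE 0.45, interval 0.48 to 2.55) or 2.86-fold. For both genes every MPX library was above every CPX library, as for 8.46% of all genes. Counted from the most positive, Gpnmb had the 8th and Lgals3 the 36th highest log2 difference of 3958 genes. By absolute size, negative differences included, they ranked 65th and 186th. Counted from the most positive again, they ranked 36th and 143rd without MPX 2, and Lgals3 ranked 196th without CPX 8. Cd68 (0.89, interval -0.66 to 2.44), Fabp5 (0.80, -0.21 to 1.82), Cd9 (0.19) and Cd63 (-0.27) had overlapping groups.

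None of the 6 passed edgeR's test of MPX against CPX after adjustment over all genes (adjusted p = 0.362 for both Gpnmb and Lgals3), and 0% of all genes did. At an unadjusted p under 0.05 edgeR counted both genes as higher in MPX, and 4.98% of all genes. Gpnmb stayed under 0.05 in 18 of 23 alternative settings. It lost this place without MPX 2, without CPX 4 or with the B cell covariate, among others. Its unadjusted p from limma voom was 0.165. DESeq2 called both (adjusted p = 0.0275 for Gpnmb and 0.0248 for Lgals3) among 1.74% of all genes called higher, and limma voom called 0 of the 6. The Gpnmb difference was 3.35 without CPX 8 and 1.70 without MPX 2, and 1.53 with CPX 4 and CPX 6 both left out, an alternative chosen after the data were seen. Lgals3 was then at 1.98. B cell genes had negative differences here for 8 of 8 (median -6.85), and their part in the result was not tested beyond using them as a covariate, which left Gpnmb at 1.93 and Lgals3 at 1.61. Endothelial genes had positive differences for 11 of 11 (median 0.57, 4 wholly higher in MPX), with sums of 2702 to 3916 CPM in MPX and 1625 to 2919 CPM in CPX, and their part was not tested.

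EA was then set against CPX, so the CPX libraries serve both contrasts. Gpnmb had a mean of 231 ± 182 CPM in EA libraries and 47.2 ± 39.0 CPM in CPX libraries, a log2 difference of 2.29 (SE 0.84, interval 0.37 to 4.21) or 4.89-fold. It had the highest log2 difference of the 3958 genes, and its groups did not overlap, as for 2.1% of genes that were wholly higher in EA. That place rested on CPX 6: without it Gpnmb ranked 77th, at 1.85. It ranked 12th with limma voom, 24th with the pan-macrophage covariate and 62nd with the number as a replicate block. In the block fit CPX 8 alone stood for CPX, so the 62nd rank does not describe the CPX group. Cd68 had a mean of 155 ± 83.4 CPM in EA libraries and 62.4 ± 42.2 CPM in CPX libraries, a log2 difference of 1.32 (interval -0.24 to 2.88), the 9th highest. Lgals3 had a mean of 192 ± 107 CPM in EA libraries and 103 ± 27.6 CPM in CPX libraries, a difference of 0.90 (interval -0.12 to 1.92). Without EA 8 the differences were 1.42 for Gpnmb, 0.78 for Cd68 and 0.34 for Lgals3.

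Fabp5 (-0.01), Cd9 (0.03) and Cd63 (-0.01) had log2 differences near 0 between EA and CPX, and their intervals were -1.02 to 1.00, -0.54 to 0.60 and -0.97 to 0.95. None of the 6 passed edgeR's test of EA against CPX (adjusted p = 0.997 for Gpnmb, Lgals3 and Cd68), and 0% of all genes did. Gpnmb alone of the 6 had an unadjusted edgeR p under 0.05, as did 0.96% of all genes in the higher direction. Gpnmb stayed under 0.05 in 17 of 23 alternative settings. It lost this place without EA 8, without CPX 4 or without CPX 6, among others, and its unadjusted p from limma voom was 0.196. DESeq2 called 0 of the 6 and 0.126% of all genes, and limma voom called 0 of 3958 genes.

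**Figure D2:**
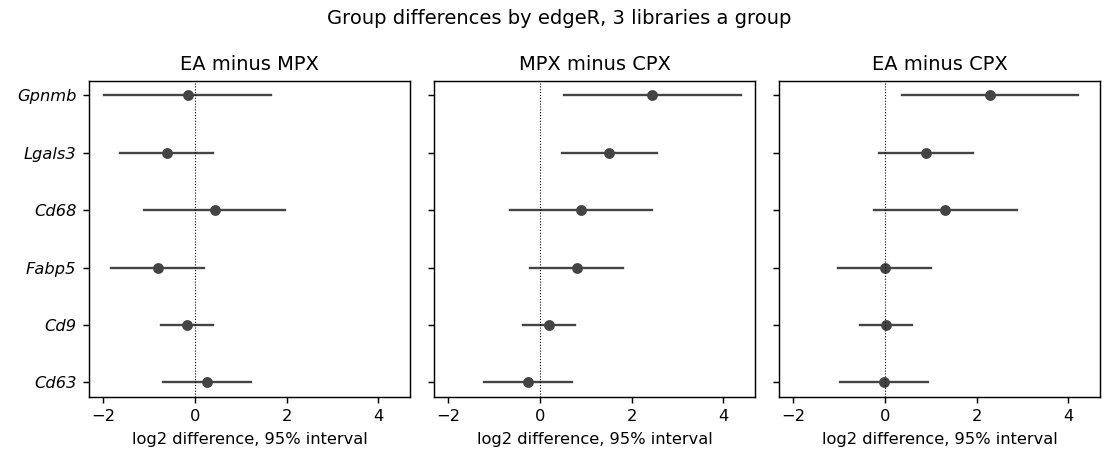
Log2 differences (x axis) of the 6 genes in the 3 contrasts from edgeR, with 95% intervals, 3 libraries a group. The Gpnmb interval lay above 0 in MPX minus CPX (0.52 to 4.38) and in EA minus CPX (0.37 to 4.21), and the Lgals3 interval did in MPX minus CPX.

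Levels were also set against other macrophage transcripts in the same library, since macrophage genes differed between libraries. The 14 listed pan-macrophage genes (of 22) summed to 4327, 3581 and 8482 CPM in EA 5, 7 and 8, to 4362, 1500 and 2012 CPM in MPX 2, 5 and 7, and to 1621, 8656 and 2974 CPM in CPX 4, 6 and 8. EA 8 and MPX 2, the libraries with most Gpnmb, Lgals3 and Cd68 in their groups, also had the highest sums there. CPX 6 had the highest sum of all 9 but the lowest Gpnmb. That first place depended on the genes summed. Over 8 macrophage genes without the leukocyte genes named below, CPX 6 was at 4097.5 CPM, below EA 8 at 5961.4 CPM. Over the C1q genes, also described below, CPX 6 was at 644 CPM, within a range from 374 CPM in MPX 5 to 1842 CPM in EA 8.

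Per 100 CPM of these genes, Gpnmb stood at 2.35, 4.25 and 5.19 in EA, at 10.9, 9.12 and 8.14 in MPX, and at 2.27, 0.168 and 3.04 in CPX. Lgals3 stood at 2.97, 3.70 and 3.72 in EA, at 10.1, 15.2 and 10.8 in MPX, and at 8.09, 1.18 and 2.55 in CPX. Cd68 stood at 2.65 to 2.96 in EA, 4.09 to 4.52 in MPX and 1.09 to 2.28 in CPX. For these 3 genes all MPX libraries were above all other libraries.

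The pan-macrophage sum includes Ptprc, Cd53 and Laptm5, which B cells also make. These scaled values are descriptions without a test. In EA, 5 of the 6 genes lay wholly below MPX per pan-macrophage CPM (all but Fabp5), where 15.7% of all genes did. Per CPM of 8 macrophage genes without those leukocyte genes, Gpnmb, Lgals3, Cd68 and Cd63 did, against 5.68% of all genes; this denominator and the next were chosen after the data were seen. Per CPM of the 3 C1q genes, which encode a complement protein made by tissue macrophages, Gpnmb and Lgals3 did, against 1.44%. Per Cd68 CPM, the same pair did, against 0.657%. Gpnmb was 0.887 to 1.75 times Cd68 in EA and 1.99 to 2.41 times in MPX, and Lgals3 was 1.12 to 1.32 times Cd68 in EA and 2.24 to 3.36 times in MPX.

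MPX lay wholly above CPX for Gpnmb, Lgals3 and Cd68 per pan-macrophage CPM, as 1.19% of all genes did. With the 8-gene denominator the same 3 did, against 1.04%, and with C1q Gpnmb and Lgals3 did, against 0.581%. Per Cd68 CPM 0% of all genes lay wholly higher in MPX, with Cd68 low in CPX 4, so this denominator says nothing about the members: Gpnmb ran from 1.99 to 2.41 in MPX and from 0.143 to 2.07 in CPX. EA lay wholly above CPX per pan-macrophage CPM for Cd68 alone of the 6, against 0.152% of all genes, and likewise with the 8-gene denominator, against 0.101%. With C1q it did for Gpnmb alone, at 11.4 to 23.9 per 100 C1q CPM in EA and 2.25 to 11.1 in CPX, against 0.0505% of all genes.

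**Figure D3:**
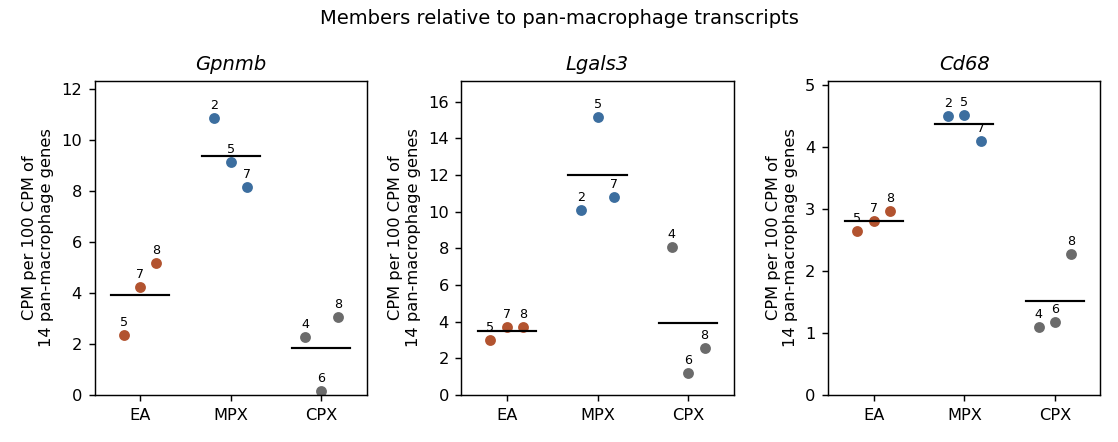
CPM of Gpnmb, Lgals3 and Cd68 per 100 CPM of 14 pan-macrophage genes in EA, MPX and CPX; points are libraries with their numbers and lines are means of 3 libraries. The MPX libraries lay above all EA and CPX libraries in each panel, for Gpnmb at 8.14 to 10.9 against 2.35 to 5.19 in EA and 0.168 to 3.04 in CPX.

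Macrophage genes of other kinds were counted from lists chosen with earlier results of these data known. Between EA and MPX all 14 pan-macrophage genes had positive log2 differences (median 0.76), as did all 13 listed resident macrophage genes of 16 (median 0.65), against 2033 of 3958 genes and a median of 0.01 overall. Timd4, a receptor for dying cells on resident macrophages, had a mean of 82.8 CPM in EA libraries and 4.16 CPM in MPX libraries (log2 difference 4.31), and Lyve1, a hyaluronan receptor, 171 CPM in EA and 45.6 CPM in MPX (1.91). Between MPX and CPX 6 of 14 pan-macrophage and 2 of 13 resident genes were positive, against 1610 of 3958 overall. None of these genes passed edgeR's test in any contrast.

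Of 40 further genes of the lipid-associated state, 28 were listed, and Trem2 was not analysed here. Between EA and MPX 13 of the 28 had positive log2 differences and 15 negative, with a median of -0.01, and 9 lay wholly lower in EA, a share to be read against the 19% of all genes. These 9 included Emp1, an epithelial membrane protein gene (223 ± 90.1 CPM in EA and 759 ± 216 CPM in MPX), Anxa5, which binds exposed phosphatidylserine (437 ± 87.3 CPM in EA libraries, 759 ± 85.2 CPM in MPX libraries), Ctsl, a lysosomal protease (461 ± 135 CPM in EA libraries, 787 ± 81.3 CPM in MPX libraries) and Lgals1, galectin-1 (731 ± 215 CPM in EA libraries, 1596 ± 263 CPM in MPX). Lpl, which splits triglycerides and is abundant in adipocytes, was another of them. Its mean was 5307 ± 2272 CPM in EA libraries and 11720 ± 3696 CPM in MPX libraries. Fabp4, Cd36 and Plin2, also adipocyte genes, were among the 9 too. Of the 15 listed adipocyte genes 12 had negative differences here and 3 positive (median -0.48). In EA 7 of the 15 lay wholly lower and 1 wholly higher. The part of adipocyte RNA in these values was not tested.

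Between MPX and CPX 19 of the 28 had positive log2 differences and 9 negative, with a median of 0.30 against -0.11 for all genes, and 5 lay wholly higher in MPX, against 8.46% of all genes. Vat1, a vesicle membrane protein gene, had a mean of 240 ± 54.2 CPM in MPX libraries and 112 ± 34.5 CPM in CPX libraries, a log2 difference of 1.10, and Anxa5, Ctsl and Emp1 were at 0.87, 0.81 and 1.42. Between EA and CPX 22 of the 28 were positive (median 0.18), against 1543 of 3958 genes (median -0.09). Without CPX 6 14 of the 28 were (median -0.01), against 1865 of 3958 (median -0.04). Vat1 had a mean of 204 ± 45.5 CPM in EA libraries and 112 ± 34.5 CPM in CPX libraries (0.87), and was the sole gene of the 28 that lay wholly higher in EA, as 2.1% of all genes did. None of the 28 passed edgeR's test in any contrast, and Lpl, Fabp4, Cd36 and Plin2 among them are also adipocyte genes.

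Of 37 lysosome genes 30 were measured, 8 of them also in the list above, and 19 had positive log2 differences between EA and MPX (median 0.12), 17 between MPX and CPX (0.02) and 21 between EA and CPX (0.10). Over all 3958 genes 2033 were positive between EA and MPX (median 0.01), 1610 between MPX and CPX (-0.11) and 1543 between EA and CPX (-0.09). Atp6v0a1, a subunit of the proton pump that acidifies lysosomes, averaged 173 CPM in EA, 316 CPM in MPX and 122 CPM in CPX. Its MPX libraries were wholly above both other groups, with log2 differences of -0.87 for EA minus MPX and 1.38 for MPX minus CPX, and it did not pass edgeR's test. Of 10 other tetraspanins 6 had positive differences between EA and MPX and 4 between MPX and CPX, and of 4 other galectins 3 did between EA and MPX and 1 between MPX and CPX. Fabp4, the sole other listed fatty acid binding protein, had differences of -0.58 in EA minus MPX and 0.40 in MPX minus CPX, the signs that Fabp5 had, and Lgals1 had -1.13 and 0.79 in these contrasts, the signs that Lgals3 had.

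**Figure D4:**
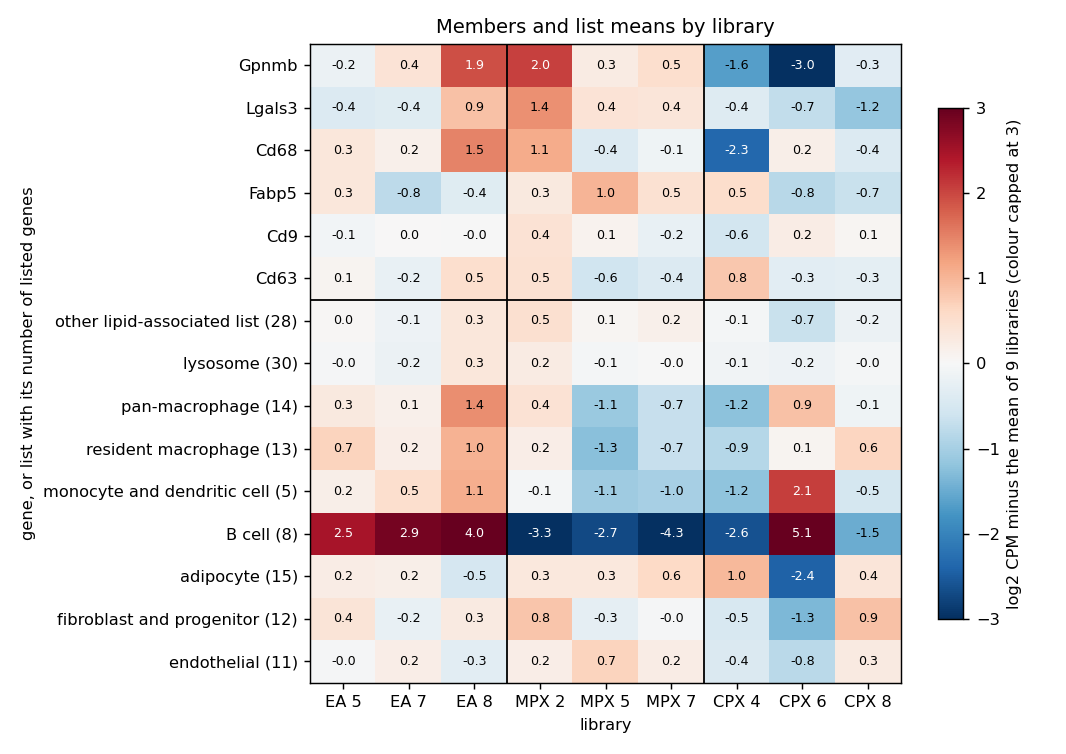
Log2 CPM minus the mean of the 9 libraries for the 6 genes (top) and for the mean of each gene list (bottom), with libraries of EA, MPX and CPX from left to right. Gpnmb and the mean of 28 other lipid-associated genes were highest in MPX 2 (2.0 and 0.5) and lowest in CPX 6 (-3.0 and -0.7), where the B cell (5.1) and monocyte and dendritic cell (2.1) lists were highest.

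Across the 9 libraries, which share groups and composition, Gpnmb and Lgals3 moved together (Pearson's r = 0.77, Spearman's rho = 0.87, and r = 0.89 without CPX 4 and CPX 6, which were farthest from the Gpnmb median). After removal of group means r was 0.52. Without CPX 4 and CPX 6, Gpnmb also had an r of 0.87 with Cd68, 0.76 with Cd63, 0.50 with Cd9 and 0.01 with Fabp5. Over the 9 libraries Gpnmb and Lgals3 had the highest r of all member pairs, and the lowest was -0.31 (Cd68 with Fabp5, and Cd9 with Cd63). After removal of group means, Cd68 with Cd9 had 0.83, Lgals3 with Cd63 had 0.81 and Cd68 with Fabp5 had -0.71. The log2 CPM of Gpnmb had an r of 0.91 with the mean of the 28 other lipid-associated genes, 0.76 with that of the lysosome genes, 0.74 with the fibroblast, 0.56 with the endothelial and 0.21 with the pan-macrophage genes. Lgals3 had 0.83 with the lipid-associated, 0.77 with the lysosome, 0.30 with the fibroblast, 0.25 with the endothelial and 0.16 with the pan-macrophage mean. Cd68 had 0.37 with the lipid-associated and 0.82 with the pan-macrophage mean. Fabp5 had -0.66 with the pan-macrophage mean. Cd9 and Cd63 had r values with the lipid-associated mean of 0.07 and 0.43.

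By Pearson's r of log2 CPM over 9 libraries, the genes most like Gpnmb were Plod1, which hydroxylates lysines in collagen (0.95), Slc8b1, a mitochondrial calcium exchanger (0.94), and Vat1 (0.92). For Lgals3 they were Atp6v1b2, another proton pump subunit (0.91), Pi4k2a, a lipid kinase (0.90), and Tmed9, a cargo receptor of the secretory pathway (0.90). For Cd68 they included Grn, the progranulin gene (0.98), and Gusb, a lysosomal glucuronidase (0.96), and both stayed at 0.91 without EA 8 and CPX 4. For Fabp5 they were Adrm1, Gsto1 and Bcap31 (0.92, 0.91 and 0.91), and for Cd63 Ftl1, Retreg2 and Igfbp7 (0.94, 0.92 and 0.91). For Cd9 they included Mbtps1 and Dse (0.88 and 0.86), with r at 0.60 and 0.55 without MPX 2 and CPX 4.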

How the data were processed

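RNA of 9 adipose libraries, 3 a group, was sequenced from TruSeq libraries, per the labels' protocols. The submitters' processing notes name HISAT2 2.0.5 and mm10. How reads were counted, with which annotation and strand setting, is not given in the sources used here. The authors deposited raw counts per gene with lengths and positions, per the file headers. This table holds 3958 genes by falling total, from 3653827 to 8471 counts, and ends inside its last row, so genes below that level were not analysed here and column sums are not depths. Of these gene names 11 were restored from the gene ID.

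Counts were tested with edgeR 4.0.16 (R 4.3.3): TMM, filterByExpr, robust quasi-likelihood fit of all 9 libraries with a mean per group, and Benjamini-Hochberg adjustment over all genes of a contrast, with 0.05 as the threshold. The procedure was run on simulated counts for EA minus MPX, with the same spread for all genes and groups. That run did not copy the unlike CPX libraries, so it cannot speak for contrasts with CPX. Alternatives were DESeq2 1.42.0, limma 3.58.1 voom, other scalings and filters, covariates, each library left out and the number as a block. With 3 libraries against 3, CPM ranges that do not overlap were counted beside the same count over all genes. Correlations used log2 CPM with a prior count of 2. The labels name no batch, and no pair of libraries of a group was near-identical (chi-square per degree of freedom at least 71.5).

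The members, the 13 lists and the tests were chosen with earlier results of these data known. Each listed member is named; in other lists at most 4 genes with the smallest p in a contrast are named, besides Lpl and the adipocyte genes; likeness names the 3 genes of highest r, of which some are not reported here. Overlaps and pseudogene copies come from GENCODE M21.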

Additional observations from a re-analysis of the deposited data

How the results depend on the processing

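Of 414 alternative values of the members' log2 differences, 373 kept their direction and side of the threshold, 39 reversed in sign and 2 passed the threshold, namely Gpnmb (2.46) and Lgals3 (1.52) in MPX minus CPX with DESeq2, which called 2 members there against 0. Gpnmb and Lgals3 stayed positive in all 23 settings of MPX minus CPX (1.53 to 3.35 and 1.14 to 2.82) and of EA minus CPX (1.34 to 3.16 and 0.34 to 2.05). The upper ends for Lgals3 came from the replicate block. The filter alternatives removed no gene, and the non-robust fit left the differences unchanged, so they say nothing about stability. Nor do fits without an EA library for MPX minus CPX, which stayed at 2.45 and 1.52. Where all libraries of a group already lay above the other group, leaving out a single library could hardly reverse a sign. The median of all genes moved from -0.11 to 0.00 in MPX minus CPX and from -0.09 to 0.10 in EA minus CPX without scaling factors.

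All reversals were of differences that passed no test, and their cause was not tested. In EA minus MPX, Gpnmb was at 1.18 with the B cell covariate and 0.085 with the adipocyte covariate, and between -1.03 and 0.58 with each library left out. Cd68 was at -0.71 with the pan-macrophage covariate and -1.17 with the B cell covariate, and between -0.10 and 1.01 with each library left out. Fabp5 was at 0.00016 with the B cell covariate. That covariate did not overlap between EA and MPX, so it can hardly be told apart from the group in these fits. In MPX minus CPX, Cd63 ran from -0.63 to 0.24 with each library left out and was at 0.22 without CPX 4 and CPX 6. In EA minus CPX the values of Fabp5, Cd9 and Cd63 lay near 0 and changed sign often. Fabp5 was at 0.13 with upper quartile factors, 0.28 without factors, 0.053 with limma voom, 0.47 with the pan-macrophage and 0.41 with the B cell covariate, 0.46 without CPX 4 and CPX 6, and -0.37 to 0.56 with each library left out. Cd9 was at -0.040 with limma voom, -0.14 with the pan-macrophage and -0.16 with the B cell covariate, -0.10 without CPX 4 and CPX 6, and -0.17 to 0.17 with each library left out. Cd63 was at 0.13 with upper quartile factors, 0.27 without factors, 0.040 with limma voom, 0.29 with the B cell covariate, 0.44 without CPX 4 and CPX 6, and -0.22 to 0.47 with each library left out.

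The labels do not say that a number pairs libraries, and deviations of same-numbered libraries correlated at 0.02 (EA 5 and MPX 5), 0.13 (EA 7 and MPX 7) and -0.51 (EA 8 and CPX 8). The numbers of MPX 2, CPX 4 and CPX 6 recur in no other library. With the number as a replicate block, CPX 8 was therefore the sole CPX library that informed a contrast. This fit cannot decide whether CPX differs from another group. Under the replicate block Cd9 was at 0.015 in EA minus MPX, -0.094 in MPX minus CPX and -0.080 in EA minus CPX, Cd63 at 0.37 in MPX minus CPX and 0.80 in EA minus CPX, and Fabp5 at 0.30 in EA minus CPX.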
